A study of Homo sapiens with 10 samples.

Results

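The region around ELF3 on chromosome 1 was described by its binding of FOS, JUN, JUNB, NFKB1 and STAT3 before and after transformation of ER-Src cells. The members are all peaks with a summit between chr1:201930000-202050000 (hg19), a window of 120 kb. They number 139 of the 879550 peaks in the 10 lists, and joining summit windows that overlap (150 bp on each side of a summit) gave 29 sites of 248897 in all. The region was chosen by measured values: a site in it ranked among the first in the joint significance of all 5 proteins in transformed cells. The strength of that site is therefore a description and not a finding. Its ratios between states are descriptions too, because the levels in transformed cells entered the choice, which favours ratios above 1 at that site. The outermost peaks of the window lie 8212 bp and 3795 bp inside its edges, a JUN peak of 12 reads and a JUNB peak of 12 reads. The nearest peaks beyond the edges lie 5332 bp and 24854 bp outside, a JUNB peak of 9 reads and a JUNB peak of 7 reads.

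ER-Src cells are MCF-10A cells, a non-tumorigenic breast epithelial line, that carry v-Src joined to the hormone-binding part of the estrogen receptor, which lets 4-hydroxytamoxifen switch the kinase on. Cells of both states carry ER-Src. The transformed cells had 1 μM 4-hydroxytamoxifen and were taken 12 h into transformation, whereas the non-transformed cells are titled as ethanol samples, and the library names in the lists give 36 h for ethanol. Each protein has 1 library per state, so no difference has a replicate check, and state, culture and library cannot be told apart. The libraries held 4837474 to 22082403 filtered reads, fewest for NFKB1 in non-transformed cells. Levels are given as RPM, the pileup (extended reads that cover the summit) for every 1000000 filtered reads, with exact Poisson 95% intervals. Ratios of transformed over non-transformed cells have exact conditional 95% intervals. Both cover counting error only, and levels of different proteins were not compared because each antibody recovers its target differently.

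ELF3 encodes an ETS family transcription factor that is largely restricted to epithelial cells and is known to be induced by inflammatory cytokines through NF-κB. FOS, JUN and JUNB are AP-1 proteins, which bind DNA as dimers at a short palindromic motif. NFKB1 is the p50 subunit of NF-κB, and STAT3 is activated by phosphorylation downstream of IL-6 family cytokines and Src. For STAT3, the labels name an antibody that the study's antibody list describes as specific for the form phosphorylated on tyrosine. No RNA was measured here, so whether any site acts on ELF3 was not tested.

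ELF3 lies at about chr1:201979690-201986315 on the plus strand of hg19. In the RefSeq gene order it is preceded by the antisense lncRNA gene ELF3-AS1 and by RNPEP, an aminopeptidase gene, and the next protein-coding gene after it is GPR37L1. The promoter is shown because NFKB1 and STAT3 summits lie just before the ELF3 start in both states. The 250 bases before the RefSeq start (GRCh38.p14, chr1:202010337-202010586, plus strand) are given below, and capitals mark the only match to the NF-κB consensus.

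ELF3 promoter: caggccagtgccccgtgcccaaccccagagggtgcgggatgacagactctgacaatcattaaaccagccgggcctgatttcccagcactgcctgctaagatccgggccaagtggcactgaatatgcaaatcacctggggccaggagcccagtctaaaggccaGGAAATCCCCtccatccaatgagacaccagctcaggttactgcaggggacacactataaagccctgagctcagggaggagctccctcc

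The NF-κB match lies on the minus strand, 88 to 79 bp before the RefSeq start. Of 35116 RefSeq promoter windows of 300 bases, 5.91% hold such a match. The AP-1 motif TGANTCA and the STAT motif TTCNNNGAA, searched on both strands, have no match in the ELF3 window, and 7.71% and 7.66% of all windows have one. The ETS core GGAA has 2 matches, of which 1 overlaps the NF-κB match, and 95.5% of all windows hold it. These letters describe the sequence and do not show binding. The RefSeq start and the hg19 start used for the peaks come from different builds and were not set equal.

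Most peaks of the window lay after the gene, on the side of the site that chose the region. The stretches before, at and after the gene differ in length, the gene itself being 6.625 kb of the 120 kb. The counts were not scaled by length. The 8 sites more than 2 kb before the ELF3 start hold 15 peaks, with pileups of 6 to 23 reads. The 4 sites at the start or in the gene hold 19 peaks, with 6 to 37 reads. The 17 sites after the gene hold 105 peaks, with 5 to 154 reads. Of the 29 sites, 20 had a peak in both states, 6 in transformed cells alone and 3 in non-transformed cells alone. Over all 248897 sites these last shares were 34.6% and 15%, against 20.7% and 10.3% in the window. The whole window held 139 peaks. As many or more occurred in 261 of 22603 tiles of the same length (1.15%), against a median of 31. Only tiles of chromosomes 1 to 22 and X that hold a peak were counted. The window was laid around a site chosen for its peaks, which favours a high count.

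**Figure D1:**
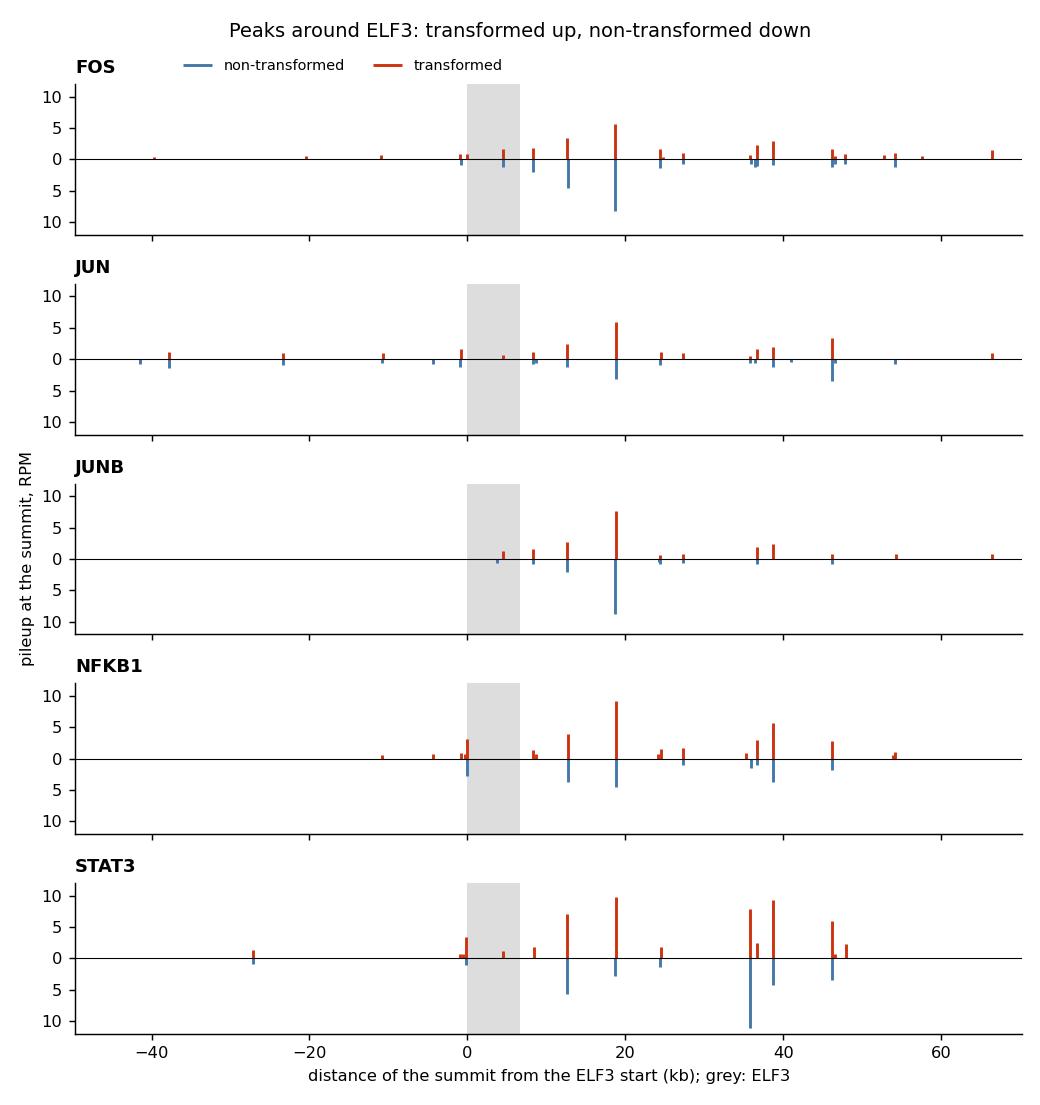
Pileup at each summit (RPM) against its distance from the ELF3 start (kb), 1 panel per protein, with transformed cells drawn upward and non-transformed cells downward (1 library each) and ELF3 in grey. The tallest FOS, JUNB and NFKB1 lines of both states stand at the site 18.8 kb after the start, whereas the tallest STAT3 line of non-transformed cells, 11.1 RPM, stands 35.9 kb after it.

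The strongest site, at chr1:201998118-201998825, lies 18.8 kb after the ELF3 start and 12.1 kb after the end of the gene. All 5 proteins had a peak there in both states. FOS had 154 reads in non-transformed cells, 8.27 RPM (7.02 to 9.69), and 125 reads in transformed cells, 5.66 RPM (4.71 to 6.74), a ratio of 0.684 (0.536 to 0.872). JUNB had 80 and 119 reads, or 8.72 (6.91 to 10.8) and 7.56 (6.26 to 9.04) RPM, with a ratio of 0.867 (0.647 to 1.17). The FOS level was thus lower in the transformed library, and the interval for JUNB includes 1. The JUNB ratio was above 1 when the fold enrichment of MACS was used in place of RPM, at 1.10.

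The other 3 proteins were higher in the transformed library at the same site, in the direction that its choice favours. JUN had 49 and 108 reads, or 3.09 (2.29 to 4.09) and 5.85 (4.80 to 7.07) RPM, a ratio of 1.89 (1.34 to 2.71). NFKB1 had 22 and 89 reads, or 4.55 (2.85 to 6.89) and 9.20 (7.39 to 11.3) RPM, a ratio of 2.02 (1.26 to 3.39). STAT3 had 30 and 88 reads, or 2.74 (1.85 to 3.92) and 9.81 (7.87 to 12.1) RPM, a ratio of 3.58 (2.34 to 5.61). For comparison, the median ratio over all sites with a peak in both states was 0.949 for FOS and 0.964 for JUNB. It was 1.29 for JUN, 1.03 for NFKB1 and 1.71 for STAT3. The STAT3 ratio at the strong site was 1.85 when each pileup was divided by the median pileup of the common sites in its library instead of by the filtered reads, that median being 12 reads for non-transformed cells and 19 for the transformed library.

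**Figure D2:**
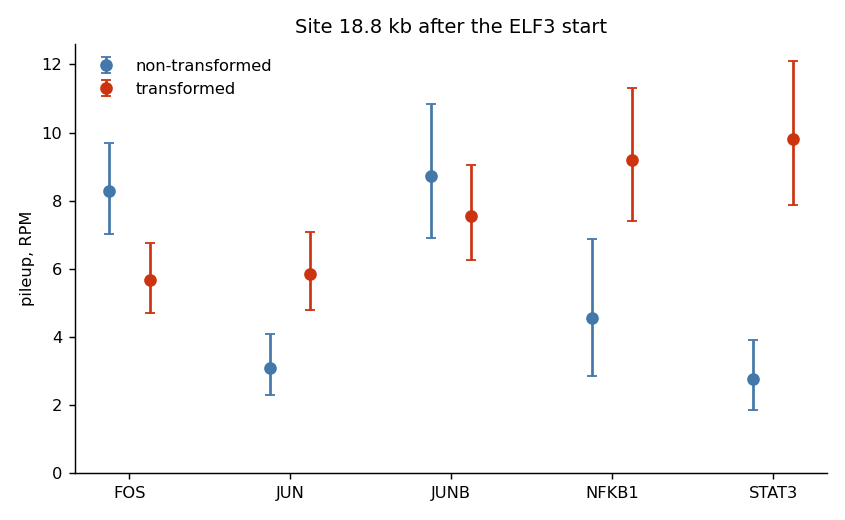
Pileup (RPM) of each protein at the site 18.8 kb after the ELF3 start, in non-transformed and transformed cells (1 library each), with exact Poisson 95% intervals that cover counting error only. FOS was lower in transformed cells (5.66 against 8.27), JUN, NFKB1 and STAT3 were higher, and the JUNB intervals overlap.

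By significance within its own list, the site ranked 32 of 164605 for FOS, 15 of 127335 for JUN and 58 of 101014 for JUNB in transformed cells, where NFKB1 ranked 118 of 73822 and STAT3 721 of 80265. These ranks are the values that chose the region. In non-transformed cells FOS ranked 88 of 119754, JUN 459 of 81444 and JUNB 131 of 75249, against 1496 of 13252 for NFKB1 and 3666 of 42810 for STAT3. The site was thus among the strongest AP-1 sites in both states, while for NFKB1 and STAT3 it was within the first 11.3% and 8.56% of the lists of non-transformed cells. Since the authors kept 1 read per position and strand, a summit can hold at most 228 to 300 reads depending on the fragment length, and the FOS summit of non-transformed cells held 64.2% of its maximum.

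The summits of FOS, JUN, JUNB and STAT3 at this site lay within 21 bp of each other in non-transformed and within 26 bp in transformed cells. The NFKB1 summit lay 102 bp from the median of these 4 in non-transformed and 73 bp from it in transformed cells. It was on the side away from ELF3 in both libraries. All 5 summits together spanned 109 bp and 93 bp. Of the sites of all 5 proteins across the genome, 14.5% of 5998 in non-transformed and 14.0% of 36787 in transformed cells had an NFKB1 summit at least as far from the median of the other 4, on either side. In the window, 1 of 3 and 1 of 7 such sites, this site itself, reached that distance. Between states, each protein's summit moved by 7 to 27 bp.

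**Figure D3:**
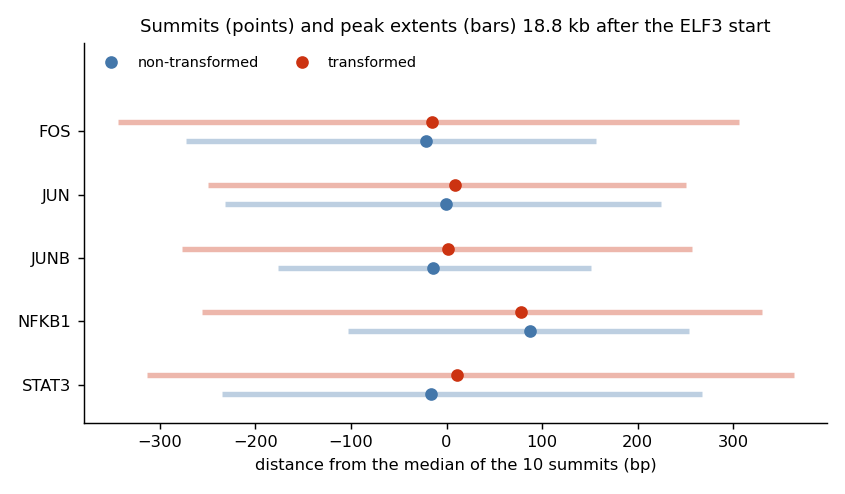
Summits (points) and peak extents (bars) of each protein at the site 18.8 kb after the ELF3 start, in bp from the median of the 10 summits, by state. Both NFKB1 summits lie to the right of the other 8, which cluster around the median.

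Closer to the gene, the site at the ELF3 start, chr1:201979117-201979723, was led by NFKB1 and STAT3. NFKB1 had 13 reads (2.69 RPM) at a summit 83 bp before the start in non-transformed cells and 31 reads (3.20 RPM) at 71 bp before it in transformed cells, a ratio of 1.19 (0.606 to 2.48). STAT3 had 12 reads (1.10 RPM) at 142 bp before the start and 30 reads (3.35 RPM) at 123 bp before it, a ratio of 3.05 (1.51 to 6.53), or 1.58 scaled to common sites. STAT3 was higher in the transformed library by more than counting error in RPM, and for NFKB1 the interval includes 1. FOS had a peak of 19 reads there in transformed cells, 0.860 RPM, and no peak in non-transformed cells. JUN and JUNB had no peak at the ELF3 start in either state. Weaker summits of 7 reads each, of STAT3 at 508 bp and NFKB1 at 302 bp before the start, were also joined to this site in transformed cells.

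A neighbouring site 0.843 to 0.883 kb before the start, chr1:201978660-201978953, had JUN and FOS in both states. JUN had 19 and 29 reads, or 1.20 and 1.57 RPM, and FOS had 16 and 19 reads, or 0.859 and 0.860 RPM. The ratios were 1.31 (0.711 to 2.47) and 1.00 (0.488 to 2.08), so neither differed beyond counting error. STAT3 (7 reads) and NFKB1 (9 reads) had peaks at this site in transformed cells alone. JUNB had none.

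Within ELF3, the main site lies 4.52 kb after the start, at chr1:201984093-201984350, and was led by FOS. FOS had 21 reads (1.13 RPM) in non-transformed and 37 reads (1.68 RPM) in transformed cells, a ratio of 1.49 (0.847 to 2.67). JUNB (19 reads), JUN (13 reads) and STAT3 (11 reads) had peaks there in transformed cells alone, and NFKB1 had none in either state. A JUNB peak of 6 reads, 3.72 kb after the start, was present in non-transformed cells alone. Exons and introns were not assigned, because the reference used here is of another build.

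All sites of the 5 proteins together lie after the gene. There were 3 of 29 sites in non-transformed cells (2.41% of all 248897 sites) and 7 of 29 in transformed cells (14.8% of all sites), and the 3 are among the 7. The strong site, which chose the region, is in both counts. Among peaks of at least 2 RPM the counts were 1 and 2. The first of the 7 begins 1639 bp after the end of ELF3, and from the first to the last summit they cover 38.0 kb. They differ in which protein stands highest in its own list.

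The site 12.6 kb after the start, chr1:201992088-201992750, had all 5 proteins in both states. STAT3 had 62 and 64 reads, or 5.67 and 7.14 RPM, and FOS had 86 and 77 reads, or 4.62 and 3.49 RPM, with ratios of 1.26 (0.873 to 1.81), or 0.652 scaled to common sites, and 0.755 (0.548 to 1.04). NFKB1 had 18 and 38 reads, or 3.72 and 3.93 RPM, a ratio of 1.06 (0.588 to 1.96). JUN had 19 and 44 reads, or 1.20 and 2.38 RPM, a ratio of 1.99 (1.14 to 3.61), and was the only protein of the 5 whose interval lay off 1 at this site. The 5 log2 ratios of the site differed from those of the strong site by a mean of 0.65, nearly as much as those of the site 46.2 kb after the start, with 0.68. STAT3 was within the first 1.54% of its list in non-transformed cells here, a higher place than at the strong site.

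The site 46.2 kb after the start, chr1:202025710-202026053, was led by JUN. JUN had 56 reads in non-transformed cells (3.53 RPM) and 63 in transformed cells (3.41 RPM), within the first 0.241% and 1.23% of its lists, with a ratio of 0.966 (0.664 to 1.41). STAT3 had 37 and 53 reads, or 3.39 and 5.91 RPM, a ratio of 1.75 (1.13 to 2.73) that became 0.905 when scaled to common sites. FOS had 23 and 36 reads, and NFKB1 had 9 and 27 reads, with an interval of the ratio that includes 1. JUNB had 8 and 12 reads, which placed it at 66.3% and 66.4% of its lists. The AP-1 proteins thus lay far apart in their lists here. At the site at 18.8 kb FOS, JUN and JUNB were all within the first 0.564% in both states. The ranks of that site in transformed cells chose the region, so the contrast is a description only.

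The site 38.7 kb after the start, chr1:202018050-202018668, had all proteins but JUNB in non-transformed cells and all 5 in transformed cells. FOS had 17 and 64 reads, or 0.913 and 2.90 RPM, a ratio of 3.17 (1.84 to 5.78), the opposite direction to the strong site. STAT3 had 46 and 83 reads, or 4.21 and 9.26 RPM, a ratio of 2.20 (1.52 to 3.23), or 1.14 scaled to common sites. NFKB1 had 18 and 55 reads, or 3.72 and 5.69 RPM, a ratio of 1.53 (0.884 to 2.76). JUN had 21 and 36 reads, with a ratio of 1.47 (0.837 to 2.65). JUNB had no peak in non-transformed cells and 37 reads in transformed cells, 2.35 RPM.

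At the site 36.4 kb after the start, chr1:202015485-202016566, the 4 proteins with peaks in both states were higher in transformed cells. The site is named by its first summit, of JUN in non-transformed cells. Its summits in transformed cells lie 36.673 to 36.699 kb after the start. FOS had 23 and 52 reads, a ratio of 1.91 (1.15 to 3.26), and JUN 10 and 31 reads, a ratio of 2.66 (1.27 to 6.09). JUNB had 8 and 31 reads, a ratio of 2.26 (1.02 to 5.69), and NFKB1 had 5 and 28 reads, a ratio of 2.80 (1.07 to 9.29). The highest FOS and JUN summits of the states lie 265 and 311 bp apart, so the FOS and JUN ratios compare different positions within the site. FOS had another summit in non-transformed cells, of 20 reads at 36.688 kb. It lies close to the FOS summit of transformed cells, of 52 reads at 36.678 kb. STAT3 had 22 reads in transformed cells and no peak joined to this site in non-transformed cells. That STAT3 peak overlaps in part a STAT3 peak of 121 reads in non-transformed cells, whose summit belongs to the site at 35.8 kb.

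The remaining sites of all 5 proteins in transformed cells were weaker. At 8.26 kb after the start, chr1:201987733-201988511, FOS had 38 and 40 reads, JUN 12 and 22, and JUNB 7 and 26, and the highest peaks of NFKB1 (14 reads) and STAT3 (17 reads) had no counterpart in non-transformed cells. At 24.2 kb, chr1:202003783-202004508, FOS had 25 and 37 reads, JUN 14 and 20, JUNB 7 and 11, and STAT3 15 and 16, and NFKB1 had 15 reads in transformed cells alone. No ratio at these sites had an interval off 1.

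**Figure D4:**
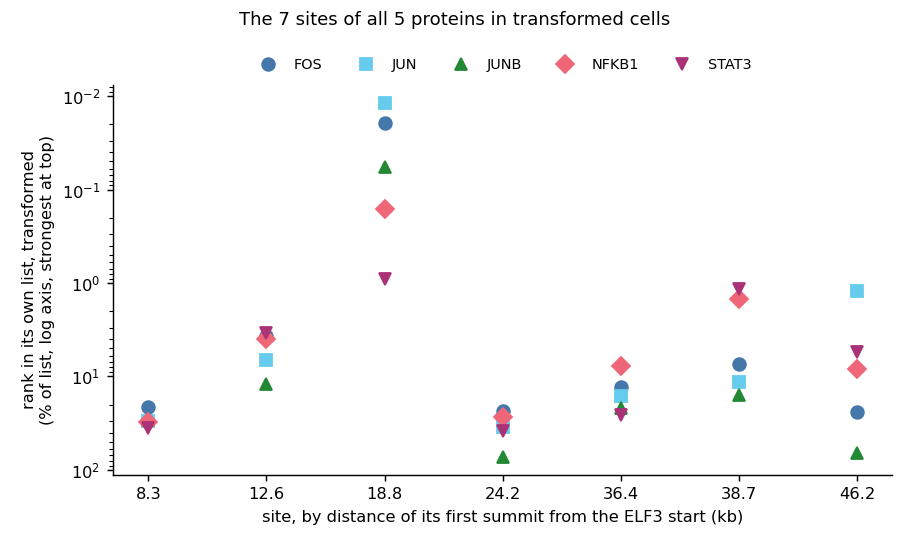
Rank of each protein's most significant peak within its own list of transformed cells (percent of the list, log axis, strongest at the top) at the 7 sites of all 5 proteins, ordered by distance from the ELF3 start (kb). At 18.8 kb all 5 proteins are within the first 0.898%, and these ranks chose the region. At 46.2 kb JUN (1.23%) and JUNB (66.4%) lie far apart, and at 38.7 kb STAT3 (1.15%) and NFKB1 (1.48%) lead.

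The highest STAT3 level of the window was at a site without a JUNB peak, 35.8 kb after the start, at chr1:202015340-202016162. This site was singled out after its values were seen, and its peaks overlap in part those of the site at 36.4 kb, whose summits lie apart from its own. STAT3 had 121 reads in non-transformed cells, 11.1 RPM (9.19 to 13.2), which ranked 43 of 42810 in its list. In transformed cells it had 71 reads, 7.92 RPM (6.18 to 9.99), and ranked 1836 of 80265. The ratio was 0.715 (0.526 to 0.966), the only STAT3 ratio in RPM below 1 among the 8 of the window. It was 0.901 (0.663 to 1.22) when pileups were also divided by the fragment lengths of the libraries, 150 bp and 119 bp, and 0.371 when scaled to common sites. FOS (13 and 16 reads) and JUN (10 and 10 reads) were weak there in both states. NFKB1 had a summit there, of 7 reads, in non-transformed cells alone. In transformed cells the NFKB1 peak of 28 reads, whose summit belongs to the site at 36.4 kb, extends over this position.

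Across the window, the proteins differed in how many peaks of transformed cells lacked a counterpart in non-transformed cells. For FOS these were 8 of 22 peaks, against 39.3% of its peaks genome-wide, and for JUN 4 of 15, against 49.3%. For JUNB they were 4 of 11, against 44.8%. NFKB1 had 10 of 18, against 83.8% genome-wide, and STAT3 had 7 of 15, against 61.6%. Part of these unmatched peaks were below the lowest level of any peak of the same protein in non-transformed cells in the window. They were 6 of 8 for FOS, 7 of 10 for NFKB1 and 3 of 7 for STAT3, and none of the 4 for JUN or the 4 for JUNB. The transformed library had 0.821 (STAT3) to 2 (NFKB1) times as many reads as the other library of its protein, and the part of depth in these counts was not tested. In the other direction, 7 of 18 JUN peaks, 1 of 9 JUNB peaks and 1 of 8 NFKB1 peaks of non-transformed cells had no counterpart in transformed cells, against 21.0%, 25.6% and 10.7% of their peaks genome-wide. None of the 15 FOS and 8 STAT3 peaks lacked one, against 17.0% and 29.1%. The unmatched JUN peaks held 8 to 12 reads. These counts rest on summit windows, and whole peaks were not tried in this direction. The unmatched JUN peaks 8.675 kb (9 reads) and 36.379 kb (10 reads) after the start overlap a longer JUN peak of transformed cells. The unmatched NFKB1 peak (7 reads) likewise lies within a longer NFKB1 peak of transformed cells.

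At sites with a peak of the protein in both states, a level at least 1.5 times higher in transformed cells was found at 2 of 14 sites for FOS (14.3%), against 18.5% of such sites genome-wide. The counts were 5 of 12 for JUN (41.7%) against 36.6% and 2 of 7 for JUNB (28.6%) against 18.6%. The 5 for JUN include the site at 36.4 kb, whose JUN summits lie 311 bp apart between states. Its JUN peaks are joined in a site, yet were also counted above as lacking a counterpart. STAT3 had 4 of 8, against 58.8%. For NFKB1 it was 5 of 7 (71.4%), the strong site among them, against 23.7%, with a median ratio of 1.53 in the window and 1.03 over all such sites. Of those 5 ratios, 2 lie just past the limit, the higher of them at 1.53. Only 2 of the 7 NFKB1 ratios had an interval above 1, at the sites 18.8 kb and 36.4 kb after the start. Scaled to common sites, the counts were 1 of 12 for JUN, 2 of 7 for NFKB1 and 2 of 8 for STAT3. With fold enrichment they were 3 of 14 for FOS, 6 of 12 for JUN, 3 of 7 for JUNB, 7 of 7 for NFKB1 and 4 of 8 for STAT3. A level at least 1.5 times lower in RPM was found at no site of the window for any protein, against 20.4%, 4.53% and 21.0% of such sites genome-wide for FOS, JUN and JUNB, and 18.1% and 3.89% for NFKB1 and STAT3. Scaled to common sites there were 1 for FOS, at the strong site, 2 for JUN and 2 for STAT3, and corrected for positions hit more than once there was 1 each for FOS and STAT3. The genome-wide shares were computed in RPM only. The scaled, fold-enrichment and corrected counts, of higher and of lower sites, therefore have no share to be set against.

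**Figure D5:**
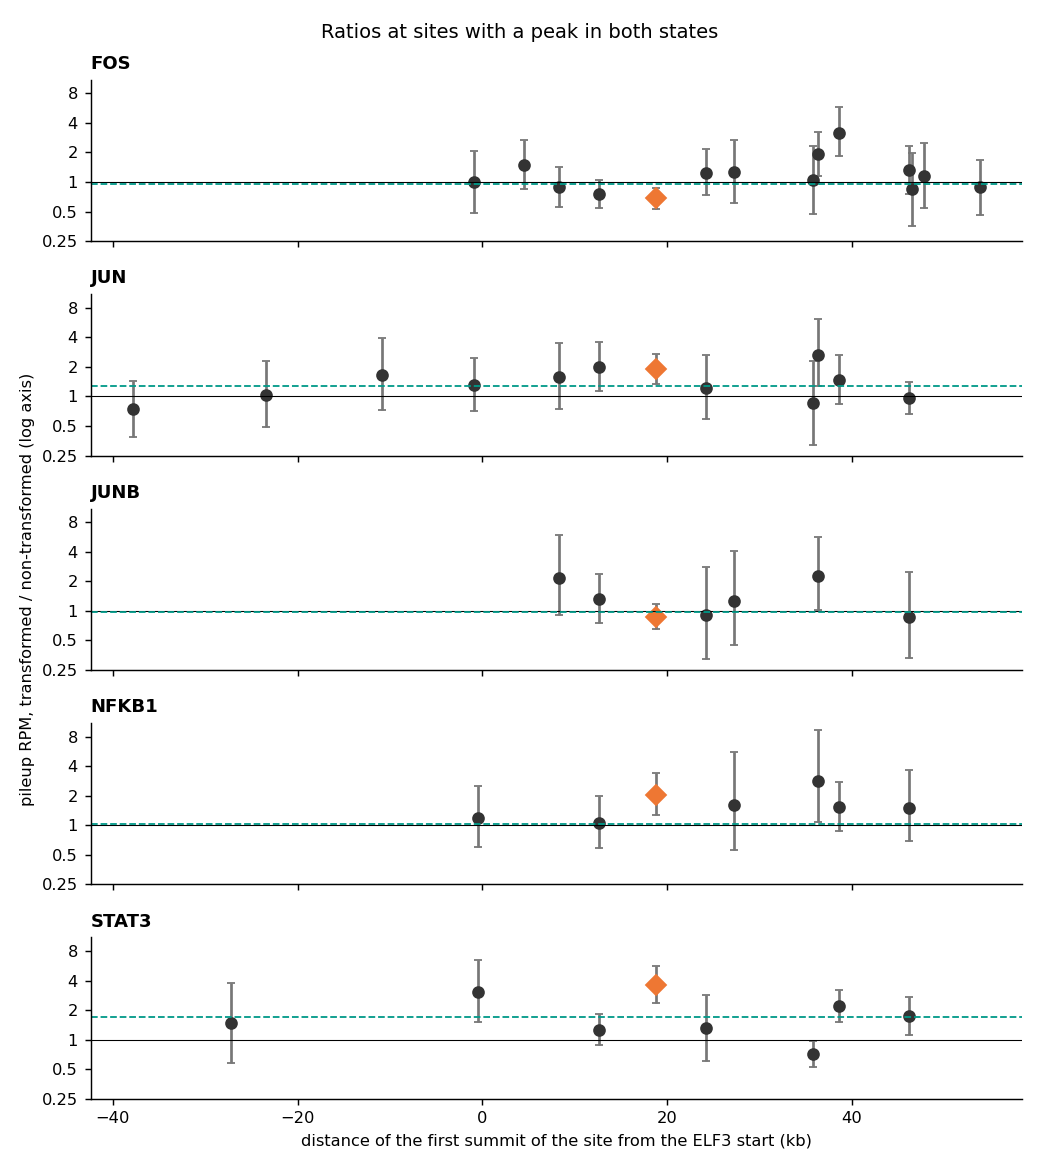
Ratio of pileup RPM, transformed over non-transformed (log axis), at each site with a peak of the protein in both states, against the distance of the site from the ELF3 start (kb). Bars are exact conditional 95% intervals of counting error, dashed lines the median ratio over all such sites genome-wide, and diamonds the site 18.8 kb after the start, where FOS lies at 0.684 and STAT3 at 3.58.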

How the data were processed

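The data are 10 ChIP-seq peak lists from ER-Src cells, grouped by the sample titles. Per the file headers, the authors called each library separately with MACS 2.0.10.20131216 from uniquely aligned 36-bp reads, using no control, 1 read per position and strand, a local background over 1000000 bp and a q-value cutoff of 0.05. The submitters' processing notes name Bowtie and hg19. The deposited pileup is the signal, a number of extended reads not scaled by depth. The deposited significance is −log10 of the p-value and q-value, and the deposited fold enrichment is a ratio to the local background.

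Peaks on chromosomes 1 to 22 and X were used. Summit windows of 150 bp on each side were joined when they overlapped by at least 1 bp, and the highest peak of a protein stood for it at a site. Sites described singly are the strong site, those within 2 kb before the ELF3 start or in the gene, and those of all 5 proteins in at least 1 state. No test was made, since each group has 1 library. The region and these rules were chosen with earlier results of these data known. The overlap and interval code was tested on simulated data. Alternatives were a stricter threshold (−log10 q of 9.41), at least 2 RPM, windows of 50 bp, whole peaks, scaling to common sites, fold enrichment, division by fragment length and a correction for positions hit more than once. Python 3.11.15, numpy 2.4.6, pandas 2.3.3 and scipy 1.17.1 were used.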

Additional observations from a re-analysis of the deposited data

How the results depend on the processing

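Of 234 alternative values for 65 results, 193 stayed within the interval of the ratio, within 1.5 times the count or at the same span, 40 did not, and 1 changed direction. The ratio settings were scaling to common sites (each pileup divided by the median pileup of the common sites in its library), fold enrichment, division by fragment length and a correction for positions hit more than once. Of the 14 ratios of the window with an interval off 1, 1 changed direction, STAT3 at 46.2 kb, from 1.75 to 0.905 when scaled to common sites. The same scaling moved the STAT3 ratio from 3.58 to 1.85 at the strong site, from 0.715 to 0.371 at 35.8 kb, from 2.20 to 1.14 at 38.7 kb and from 1.26 to 0.652 at 12.6 kb. Division by fragment length, the position correction, all settings away from the strong site, the ELF3 start and the gene, and those for counts of sites 1.5 times higher or lower were chosen after seeing the data. Scaled to common sites, sites at least 1.5 times higher numbered 1 for JUN, 2 for NFKB1 and 2 for STAT3, and sites at least 1.5 times lower 1 for FOS, 2 for JUN and 2 for STAT3. Divided by fragment length, 7 STAT3 sites were at least 1.5 times higher, and corrected for positions hit more than once, 1 FOS and 1 STAT3 site were at least 1.5 times lower. Genome-wide shares were not computed in these settings. The cause of these changes was not tested. Counts of peaks depend on the threshold. With the stricter threshold, peaks numbered 14 for FOS in transformed cells, 6 for JUN in non-transformed cells, 2 and 6 for JUNB and 4 and 9 for NFKB1 in non-transformed and transformed cells, and peaks of transformed cells without a counterpart numbered 2 each for FOS, JUNB and NFKB1 and 3 for STAT3. With at least 2 RPM, peaks in non-transformed and transformed cells numbered 3 and 4 (FOS), 2 and 3 (both JUN and JUNB), 4 and 6 (NFKB1) and 5 and 8 (STAT3), sites of all 5 proteins 1 and 2, and peaks without a counterpart 0 for FOS, JUN and NFKB1, 1 for JUNB and 2 for STAT3. Fewer peaks enter under both thresholds by construction. No paired analysis was possible because each protein and state has 1 library, and for the same reason no library could be left out. The 4837474 reads of NFKB1 in non-transformed cells limit what can be seen of its weak sites.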
